A study of Rattus norvegicus with 9 samples.

Results

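Mitochondrial ribosomal protein genes were taken as the rows of the expression table whose symbol starts with Mrpl or Mrps followed by a number, with pseudogenes left out. The rule found 74 of 20442 genes, 44 with an Mrpl symbol and 30 with an Mrps symbol. Of these, 73 reached 1 FPKM (fragments per kilobase, a level per length of gene that is also scaled to library size) in at least 3 libraries and entered the tests, which ran over 11141 genes. The exception was Mrps21l, which the table leaves without a description. It was listed at 0 in 8 of the 9 libraries and at 0.0585 FPKM in LPS+EVs replicate 2, and it is left out below. Mrpl9, Mrpl11, Mrpl24, Mrpl28 and Mrpl53 were not analysed here.

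RNA was sequenced from 9 cultures of wild-type rat bone marrow-derived dendritic cells, antigen-presenting cells grown out of marrow in 10% serum with the cytokines GM-CSF (20 ng/mL) and IL-4 (20 ng/mL). LPS+EVs cultures (n = 3) received lipopolysaccharide (LPS, bacterial endotoxin, 1 µg/mL) and extracellular vesicles (EVs), which the study's title derives from ASCs and describes as carriers of mitochondria. LPS cultures (n = 3) received LPS, and Control cultures (n = 3) no treatment. The protocol text, the same on every sample, gives a time of 24 h and, beside LPS, a concentration of 50 ng/mL without saying of what. Whether Control or LPS cultures received that substance, and at which dose EVs were given, is not known here, so its part in any difference cannot be told apart. Replicates are labelled as biological and nothing ties them to separate animals, so p-values measure the spread between these cultures. In bulk RNA, fewer cells of a type and less RNA per cell cannot be told apart.

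Mitochondria make the 13 proteins encoded by their own genome, all of them subunits of the respiratory chain and ATP synthase, on ribosomes of their own. Those ribosomes have a large subunit, which joins amino acids and releases the chain through an exit tunnel at the inner membrane, and a small subunit, which reads the mRNA. Their RNA comes from the mitochondrial genome, but every one of their proteins is encoded in the nucleus, made in the cytosol and imported. Some of these proteins descend from bacterial ribosomal proteins and others exist only in mitochondria. The roles given here are known mainly from human, pig and cattle ribosomes and from bacterial counterparts. By those roles 46 of the members belong to the large subunit and 26 to the small one. Mrps18a and Mrps30 count as large subunit proteins despite their symbols, and Mrps36 is now known as a subunit of 2-oxoglutarate dehydrogenase and not of the ribosome.

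Genes of this kind have no shared promoter, and the windows of 8 members are shown because they cover members with large differences between LPS and Control and members without one. Windows are 300 bases long (250 before and 50 after the transcription start) from RefSeq's table for the rat build GRCr8, which is not the build of the expression table. Capitals mark matches, on either strand, to CCGGAAG, the core bound by ETS factors such as GABP, or to AAGATGGC, a form of the YY1 site. Mrps27 lies at chr2:32473954-32474253 (plus strand), Mrps7 at chr10:101342392-101342691 (plus), Mrpl46 at chr1:142116981-142117280 (minus), Mrpl49 at chr1:212779278-212779577 (minus), Mrpl23 at chr1:207116680-207116979 (plus), Mrpl58 at chr10:101145092-101145391 (plus), Mrpl52 at chr15:31852686-31852985 (plus) and Mrpl12 at chr10:106256496-106256795 (plus). Each sequence runs 5′ to 3′ on the strand of its gene.
Mrps27: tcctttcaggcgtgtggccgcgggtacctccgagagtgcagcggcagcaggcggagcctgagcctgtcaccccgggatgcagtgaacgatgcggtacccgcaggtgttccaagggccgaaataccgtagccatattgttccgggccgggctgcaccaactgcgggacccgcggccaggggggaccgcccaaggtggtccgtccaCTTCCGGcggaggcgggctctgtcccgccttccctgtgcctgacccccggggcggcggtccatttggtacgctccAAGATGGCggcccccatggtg
Mrps7: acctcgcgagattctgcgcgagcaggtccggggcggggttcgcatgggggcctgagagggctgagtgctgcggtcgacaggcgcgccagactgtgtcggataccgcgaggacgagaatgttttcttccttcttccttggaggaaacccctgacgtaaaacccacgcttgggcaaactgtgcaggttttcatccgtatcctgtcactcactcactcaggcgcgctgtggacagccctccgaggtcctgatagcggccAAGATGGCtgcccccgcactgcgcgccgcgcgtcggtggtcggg
Mrpl46: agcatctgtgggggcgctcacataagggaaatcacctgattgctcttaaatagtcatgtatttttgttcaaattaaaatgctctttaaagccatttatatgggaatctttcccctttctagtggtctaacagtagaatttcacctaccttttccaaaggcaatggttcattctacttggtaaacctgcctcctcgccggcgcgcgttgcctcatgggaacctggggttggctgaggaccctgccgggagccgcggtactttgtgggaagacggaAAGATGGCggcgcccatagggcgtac
Mrpl49: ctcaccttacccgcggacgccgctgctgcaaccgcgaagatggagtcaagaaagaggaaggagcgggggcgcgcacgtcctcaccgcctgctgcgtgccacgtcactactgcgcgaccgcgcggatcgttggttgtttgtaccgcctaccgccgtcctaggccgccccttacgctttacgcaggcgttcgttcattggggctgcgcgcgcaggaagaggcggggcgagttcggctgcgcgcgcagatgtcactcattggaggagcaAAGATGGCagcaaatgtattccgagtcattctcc
Mrpl23: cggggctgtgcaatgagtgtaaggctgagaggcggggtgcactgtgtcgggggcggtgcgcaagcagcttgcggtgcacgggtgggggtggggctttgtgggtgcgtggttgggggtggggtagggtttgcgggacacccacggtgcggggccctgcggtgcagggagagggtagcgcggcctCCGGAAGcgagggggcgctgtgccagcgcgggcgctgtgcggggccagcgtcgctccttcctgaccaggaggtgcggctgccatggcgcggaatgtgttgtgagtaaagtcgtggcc
Mrpl58: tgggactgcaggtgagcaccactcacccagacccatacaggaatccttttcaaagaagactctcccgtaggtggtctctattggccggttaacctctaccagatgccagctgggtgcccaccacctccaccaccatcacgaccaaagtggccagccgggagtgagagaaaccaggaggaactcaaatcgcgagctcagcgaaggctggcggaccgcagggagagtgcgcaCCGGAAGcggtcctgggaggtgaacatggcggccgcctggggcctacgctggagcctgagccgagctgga
Mrpl52: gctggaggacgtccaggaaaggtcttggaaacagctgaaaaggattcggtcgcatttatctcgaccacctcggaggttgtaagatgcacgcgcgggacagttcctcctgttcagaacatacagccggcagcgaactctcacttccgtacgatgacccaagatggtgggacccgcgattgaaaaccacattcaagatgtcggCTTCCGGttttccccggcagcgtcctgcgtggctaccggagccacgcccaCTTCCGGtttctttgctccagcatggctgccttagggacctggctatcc
Mrpl12: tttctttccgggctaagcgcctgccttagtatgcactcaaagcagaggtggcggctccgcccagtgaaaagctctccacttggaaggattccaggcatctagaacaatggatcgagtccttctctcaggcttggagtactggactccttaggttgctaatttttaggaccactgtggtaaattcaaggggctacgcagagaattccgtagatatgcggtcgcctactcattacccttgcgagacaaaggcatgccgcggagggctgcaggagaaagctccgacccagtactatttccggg

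The YY1 letters stood shortly after the start in Mrps27, Mrps7, Mrpl46 and Mrpl49, the ETS letters before the start in Mrps27, Mrpl23 and Mrpl58, both before and directly after it in Mrpl52, and neither in Mrpl12. RefSeq gave 61 windows for 59 members, and 15 members had none. AAGATGGC was present in 15 of 61 member windows (24.6%), in 3.17% of all 33469 windows and in 5.75% of the 10147 windows of tested genes. Of its 15 matches, 13 ran in the gene's own direction and 11 began after the transcription start, with a median of 16 bases after it. Over all windows 62.7% of 1102 matches ran that way and 41.7% began after the start. CCGGAAG was present in 20 member windows (32.8%), in 8.75% of all windows and in 18.7% of those of tested genes. The NRF1 letters GCGCANGCG, which read nearly the same on both strands, were in 12 member windows (19.7%), 5.8% of all windows and 13.3% of those of tested genes. The E-box CACGTG, a palindrome bound by MYC, was in 6 member windows (9.84%), 6.42% of all windows and 9.3% of those of tested genes. None of these strings contains another, both strands were searched, and 22 members had none of the 4.

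Head-to-head neighbours were common. For 15 of the 59 members (25.4%) the window shared bases with that of a gene on the opposite strand that is transcribed away from it, against 15.9% of the 9125 tested genes with a window and 10.4% of all 27457 genes with one. One such pair was made of members alone: Mrpl46, in the central protuberance of the large subunit, and Mrps11, in the platform of the small subunit, start 234 bases apart and share 267 bases of their windows, so that the Mrpl46 sequence above also carries most of that of Mrps11. Other partners included Ndufb5, a complex I subunit, beside Mrpl47, Ptcd2, a mitochondrial RNA-binding protein, beside Mrps27, and Fau, which encodes a cytosolic ribosomal protein fusion, beside Mrpl49. The DNA repair gene Eme1 lay beside Mrpl27, and the condensin gene Ncapd2 beside Mrpl51.

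The 9 libraries held 32148519 to 39407116 assigned reads, recovered from the steps of the FPKM values, and 9846 to 10821 genes reached 1 FPKM in each. In the 73 members the lowest count in any library was 24 reads, so even the weakest values rest on more than a few reads. Libraries numbered 2 stood apart from the others of their group on the second principal component (scores of -35.9 in LPS+EVs, -41.1 in LPS and -20.9 in Control). They also held the most of 16 dendritic cell markers, led by Cd74 and the MHC class II genes: the summed level was 8760 FPKM in LPS+EVs replicate 2, against 1760 and 2280 in the other LPS+EVs libraries. It was 8390 FPKM in LPS replicate 2, against 1320 and 2250, and 9950 FPKM in Control replicate 2, against 2200 and 3620. Of the 16 markers 13 were tested. Itgax (CD11c) averaged 34.5 FPKM in LPS+EVs, 38.8 in LPS and 40.4 in Control, whereas Flt3, Clec9a and Xcr1 stayed under 1 FPKM in every library. All 12 macrophage and monocyte markers were expressed too, with sums of 1590 to 2050 FPKM in LPS+EVs, 1320 to 1840 in LPS and 1460 to 1640 in Control. T and B cell markers summed to at most 2.04 FPKM. Where leaving out the libraries numbered 2 changed the call of a member described between LPS and Control, or moved its difference by over 1.5 times, the value without them is given beside it.

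Most of the set was lower in LPS than in Control. Of 73 members, 51 were lower at an adjusted p under 0.05, against 28.7% of all 11141 genes, and 0 were higher, against 12.3%. The median log2 difference of FPKM + 1 over the members was -0.63, beside -0.19 over all tested genes, so members should be read against that shift. The LPS libraries lay below all Control libraries in 57 members (37.6% of all genes), and 16 members were called lower with a log2 difference of -1 or beyond (12.6% of all genes). With libraries scaled by median-of-ratios, which sets the shift of all genes near 0, 34 members were lower (20.8% of all genes) at a median of -0.42. Over all genes that scaling gave 2307 lower and 1895 higher, where the deposited scaling gave 3201 lower and 1368 higher. The 17 members that no longer passed with it included Mrpl22, Mrpl40, Mrpl45, Mrps2, Mrps5, Mrps18c, Mrps22 and Mrps24. Leaving out Control replicate 1 brought the count of lower members to 31 (17.4% of all genes), and Mrpl3, Mrpl22, Mrpl40, Mrpl45, Mrps5, Mrps7, Mrps18a, Mrps18c, Mrps24 and Mrps28 were among those that no longer passed. With the libraries numbered 1 and 3 alone it was again 51 (26.8% of all genes), of which 48 were the same genes. With replicate number as a block in the model it was 54 (35.5% of all genes). Under each of the 17 alternative settings, left-out libraries among them, 28 members were lower, including Mrpl12, Mrpl17, Mrpl19, Mrpl23, Mrpl58, Mrps11 and Mrps12. Tests here and below are limma's moderated test on log2(FPKM + 1) with Benjamini-Hochberg adjustment over all genes.

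**Figure D1:**
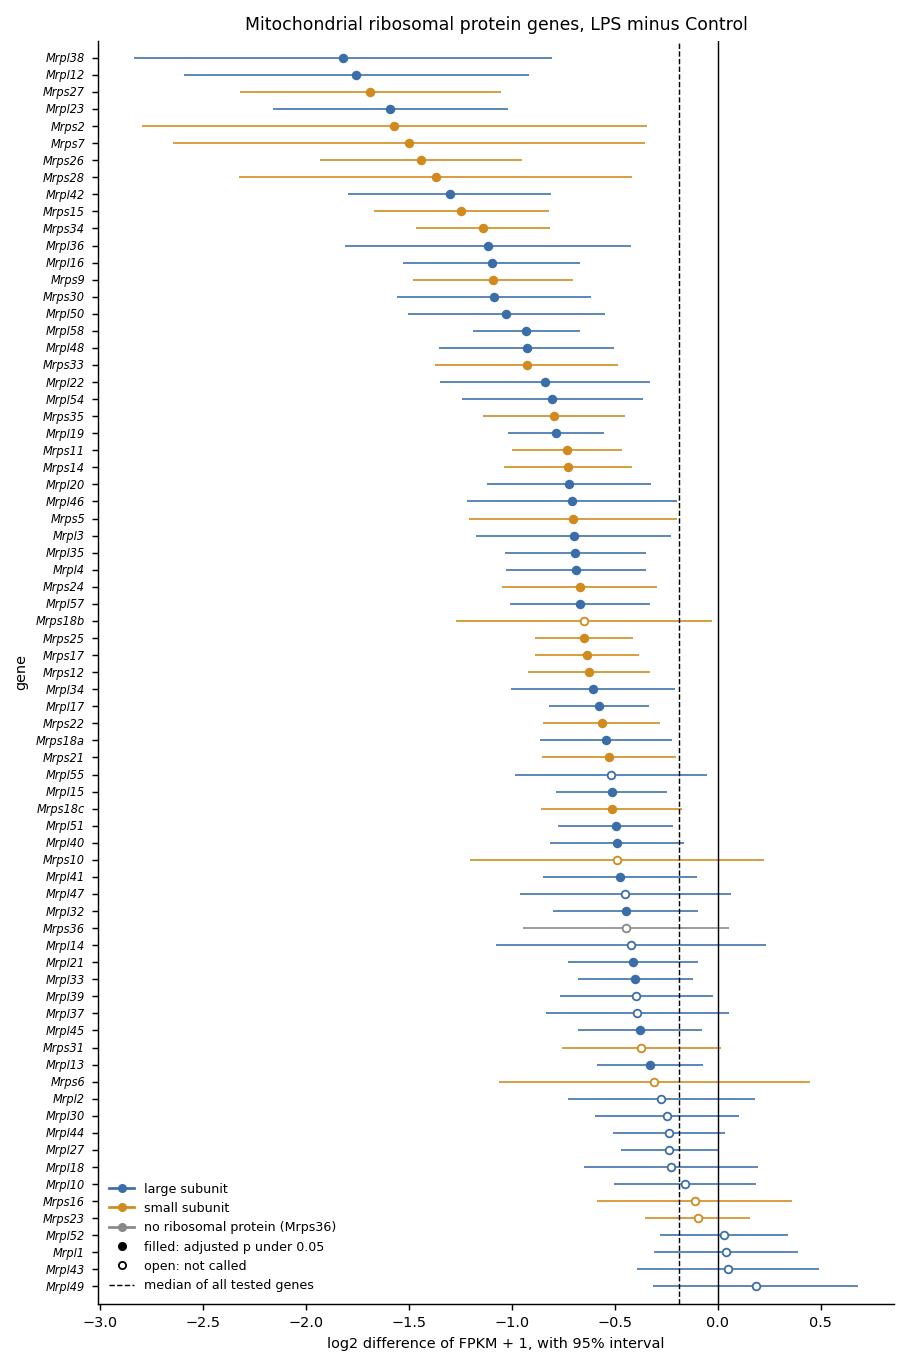
Log2 difference of FPKM + 1 between LPS and Control for each of 73 members (points) with 95% intervals (lines), blue for the large and orange for the small subunit, grey for Mrps36. Filled points have an adjusted p under 0.05, and the dashed line is the median of all tested genes (-0.19); 51 filled points lie left of 0 and none right of it.

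The summed level of the members was 1411, 1253 and 1520 FPKM in LPS+EVs, 1419, 1211 and 1332 FPKM in LPS and 2129, 2034 and 1967 FPKM in Control. Every LPS+EVs and LPS library thus lay below every Control library. As a share of assigned reads the members took 0.14% to 0.169% in LPS+EVs, 0.136% to 0.161% in LPS and 0.22% to 0.241% in Control. The median member stood at 13.5 to 15.2 FPKM in LPS+EVs, 12.9 to 14.6 FPKM in LPS and 22.1 to 24.6 FPKM in Control. Both subunits were lower: the large subunit summed to 1.97 to 2.12 times the small one in LPS+EVs, 1.95 to 2.24 times in LPS and 1.88 to 1.97 times in Control. Of large subunit members 31 of 46 were lower in LPS (median log2 difference -0.52), and of small subunit members 20 of 26 (median -0.69). Over all genes 28.7% were lower, at a median of -0.19, and counts by part of the set are to be read beside that. With median-of-ratios scaling 20 of 46 and 14 of 26 were lower (20.8% of all genes). Proteins with a bacterial counterpart (31 of 44 lower, median -0.62) and those found in mitochondria alone (20 of 28, median -0.66) were close to each other.

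In the large subunit, the exit tunnel and the membrane-facing side held a broad range of differences. Mrpl23, at the mouth of the tunnel, stood at 25.2, 15.1 and 29.2 FPKM in LPS+EVs, 24.1, 16.2 and 26.7 FPKM in LPS and 69.7, 69.1 and 64.6 FPKM in Control. All LPS+EVs and LPS libraries lay far below the lowest Control library. The log2 difference between LPS and Control was -1.59 (SE 0.25, adjusted p = 0.00151). Mrpl17, also beside the tunnel and the most abundant member per length, had 72.7, 72.2 and 74.6 FPKM in LPS+EVs, 85.0, 69.5 and 69.7 FPKM in LPS and 110.4, 117 and 107.6 FPKM in Control. It too was separated from Control in every LPS library, by a smaller log2 difference of -0.58 (SE 0.11, adjusted p = 0.00328). Mrpl22, which lines the tunnel, was lower as well (log2 difference -0.84, adjusted p = 0.0173), but not with median-of-ratios scaling (adjusted p = 0.113, the highest over the alternatives). Mrpl45, which ties the ribosome to the inner membrane, passed narrowly in LPS against Control (-0.38, adjusted p = 0.0495, with 0.0176 to 0.425 over the alternatives). Mrpl47 had a log2 difference of -0.45 and an adjusted p of 0.141, and -0.14 with libraries 1 and 3 alone (adjusted p = 0.491).

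The stalk that captures translation factors was split. Mrpl12, its factor-binding protein, which in human cells also binds the mitochondrial RNA polymerase, had 9.24, 6.03 and 14.4 FPKM in LPS+EVs, 12.9, 5.79 and 15.5 FPKM in LPS and 44.0, 38.5 and 32.8 FPKM in Control. All LPS libraries lay below Control, with the lowest in replicate 2, and the log2 difference was -1.75 (SE 0.37, adjusted p = 0.00608). With libraries 1 and 3 alone it was -1.36 (adjusted p = 0.00479). Mrpl10, which anchors Mrpl12, had 25.2, 22.3 and 20.8 FPKM in LPS+EVs, 23.9, 26.0 and 17.6 FPKM in LPS and 26.1, 24.8 and 23.9 FPKM in Control. Those groups overlapped (log2 difference -0.16, adjusted p = 0.43), and the sign turned with median-of-ratios scaling (0.05). With libraries 1 and 3 alone the difference was -0.27 (adjusted p = 0.251). Mrpl1, on the L1 stalk that guides spent tRNA out, likewise overlapped (0.04, adjusted p = 0.852, and -0.003, adjusted p = 0.991, with libraries 1 and 3 alone).

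Of the proteins grouped here as the core of the large subunit, Mrpl3 (-0.70, adjusted p = 0.0265, with 0.00278 to 0.098 over the alternatives), Mrpl4 (-0.69, adjusted p = 0.00703) and Mrpl16 were lower in LPS. Mrpl2, of the same group, had a log2 difference of -0.28 with an adjusted p of 0.297. In the central protuberance 5 of 8 members were lower in LPS (28.7% of all genes). One of them was Mrpl58, a peptidyl-tRNA hydrolase that frees stalled chains and sits in the ribosome as a structural protein. It had 18.3, 19.8 and 22.9 FPKM in LPS+EVs, 16.1, 17.3 and 15.7 FPKM in LPS and 34.2, 31.4 and 30.7 FPKM in Control. Here replicates were tight, and the log2 difference of -0.93 (SE 0.11, adjusted p = 0.000444 between LPS and Control) gave the smallest p of any member. Mrpl38, in the same region and named after its values were seen, had 6.2, 2.97 and 10.3 FPKM in LPS+EVs, 7.82, 3.23 and 10.8 FPKM in LPS and 26.9, 30.9 and 20.9 FPKM in Control. Its log2 difference of -1.82 (SE 0.45, adjusted p = 0.0122) was the largest of all members on the FPKM + 1 scale, but not with libraries 1 and 3 alone, where it was -1.27 (adjusted p = 0.00885), beside -1.37 for Mrpl23. As a ratio of means it stood at 0.278 of Control, beside 0.263 for Mrps27. Mrpl40 was among the least abundant members and was lower by less (-0.49, adjusted p = 0.0246, up to 0.0942 over the alternatives).

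Elsewhere in the large subunit, Mrpl19 had 11.3, 10.2 and 11.4 FPKM in LPS+EVs, 10.9, 10.4 and 9.88 FPKM in LPS and 18.5, 19.1 and 18.2 FPKM in Control. Its groups were even, with the smallest standard error of any member (0.10) around a log2 difference of -0.79 between LPS and Control (adjusted p = 0.000601). Mrpl50, a protein without bacterial counterpart, was lower by 1.03 on the log2 scale, and Mrpl54 by 0.80. Mrps30, a large subunit protein by structure, was lower with a log2 difference of -1.09 (adjusted p = 0.00382), and Mrps18a with -0.54 (adjusted p = 0.0155, up to 0.0646 over the alternatives).

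**Figure D2:**
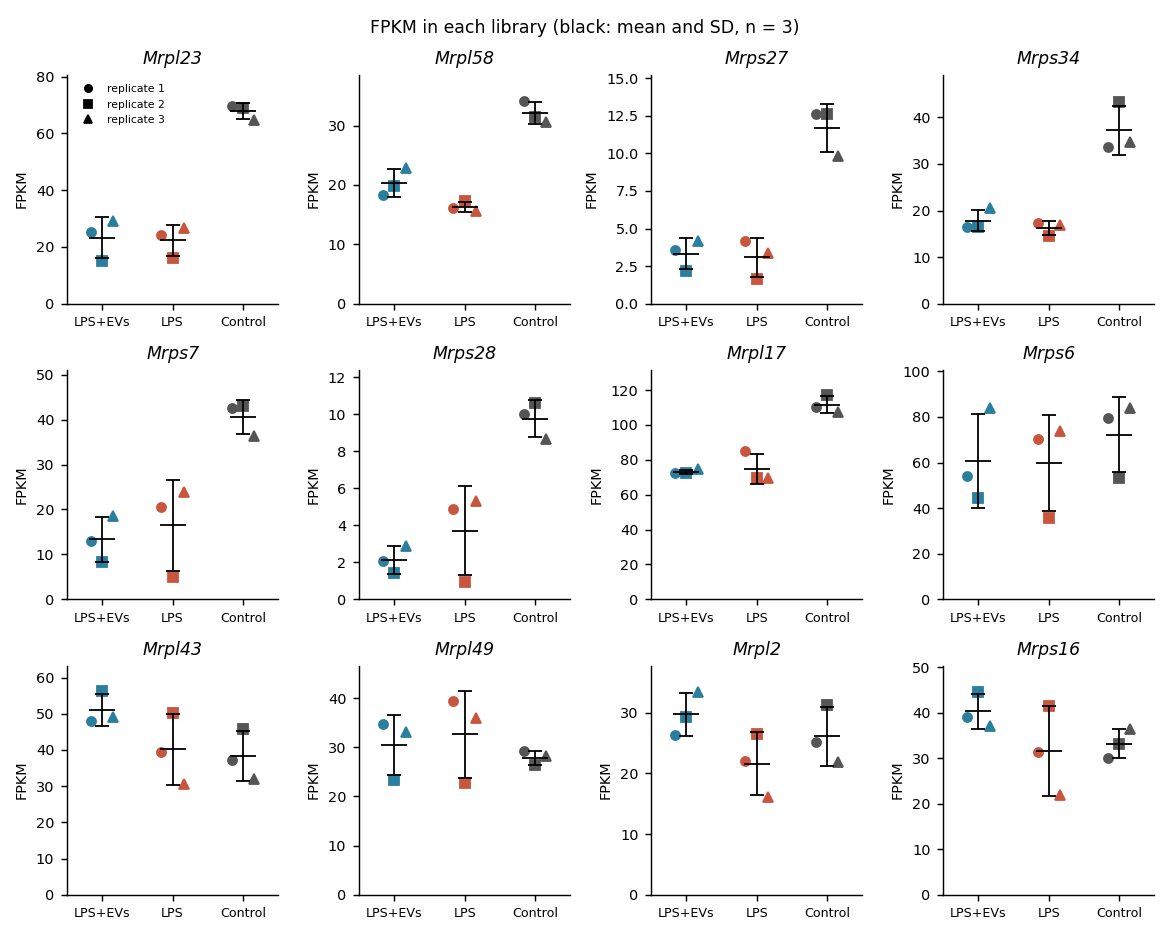
FPKM of 12 members in each library by group (LPS+EVs, LPS, Control); markers give the replicate number, black bars the mean and SD (n = 3). Mrpl23, Mrpl58, Mrps27, Mrps34, Mrps7, Mrps28 and Mrpl17 lie lower in every LPS library than in any Control library, whereas Mrps6, Mrpl43, Mrpl49, Mrpl2 and Mrps16 overlap.

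In the small subunit the proteins of the mRNA channel and decoding site were all lower. Mrps12, at the decoding centre, had 19.7, 21.3 and 25.7 FPKM in LPS+EVs, 22.0, 18.1 and 22.4 FPKM in LPS and 32.1, 32.6 and 32.9 FPKM in Control. Control libraries were nearly equal and all above the others (log2 difference of LPS from Control -0.63, SE 0.13, adjusted p = 0.00589). Mrps5 (-0.70, adjusted p = 0.0331) and Mrps24 (-0.67, adjusted p = 0.0122), both at the channel's entrance, were lower too. With median-of-ratios scaling Mrps5 (adjusted p = 0.0546) and Mrps24 (adjusted p = 0.0711) no longer passed, within ranges over the alternatives of 0.00489 to 0.0983 and 0.0105 to 0.0711.

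In the head 5 of 7 members were lower (28.7% of all genes). Mrps7, which binds the head's rRNA, had 13.1, 8.4 and 18.6 FPKM in LPS+EVs, 20.5, 4.94 and 24.0 FPKM in LPS and 42.6, 43.1 and 36.4 FPKM in Control. LPS replicate 2 stood far under the other LPS libraries, and the log2 difference of -1.50 carried an SE of 0.50 (adjusted p = 0.0419, with 0.012 to 0.109 over the alternatives). Without LPS replicate 2 it was -0.84 (adjusted p = 0.039), and with libraries 1 and 3 of each group alone -0.80 (adjusted p = 0.0151). Mrps9 was lower with a smaller error (-1.09, SE 0.17, adjusted p = 0.00148), as was Mrps35 (-0.80, adjusted p = 0.00379).

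Of the proteins that exist in mitochondria alone, Mrps27, an RNA-binding protein with pentatricopeptide repeats, had 3.58, 2.17 and 4.2 FPKM in LPS+EVs, 4.2, 1.63 and 3.39 FPKM in LPS and 12.6, 12.6 and 9.85 FPKM in Control. The LPS mean was 0.263 of the Control mean (log2 difference -1.69, SE 0.28, adjusted p = 0.00191). Mrps34, which human cells need to keep the small subunit stable, had 16.5, 16.5 and 20.6 FPKM in LPS+EVs, 17.3, 14.6 and 17.0 FPKM in LPS and 33.7, 43.3 and 34.7 FPKM in Control. All 6 treated libraries lay below Control, and the LPS difference from Control was -1.14 (SE 0.14, adjusted p = 0.000495). Mrps26 (-1.44, adjusted p = 0.0012) and Mrps25 (-0.65, adjusted p = 0.00166) were lower as well, and Mrps22 with -0.56 (adjusted p = 0.00754).

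Mrps28, the lowest member of the set in LPS replicate 2, had 2.08, 1.4 and 2.9 FPKM in LPS+EVs, 4.86, 0.923 and 5.32 FPKM in LPS and 9.99, 10.6 and 8.64 FPKM in Control. Its value of 0.923 FPKM rested on 24 reads, and the log2 difference of -1.37 (SE 0.42, adjusted p = 0.0295) ran from 0.0111 to 0.0833 in adjusted p over the alternatives. Without LPS replicate 2 it was -0.82 (adjusted p = 0.0163), and with libraries 1 and 3 alone -0.76 (adjusted p = 0.0122). Mrps15, an early rRNA binder, was lower by 1.25 on the log2 scale (adjusted p = 0.0012). Mrps11, which shares its promoter region with Mrpl46, had a log2 difference of -0.73 (SE 0.12, adjusted p = 0.00167), and Mrpl46 one of -0.71 (SE 0.22, adjusted p = 0.034). Both were lower in every LPS library than in any Control library. Other head-to-head partners differed more in size, and not all were lower. Psma2, beside Mrpl32 (-0.45, adjusted p = 0.0457), had -0.06 (adjusted p = 0.739). Mitd1, beside Mrpl30 (-0.25, adjusted p = 0.226), had 0.11 (adjusted p = 0.584). The remaining tested partners were lower, Tcp1, Hira and Gga3 among them. Beside Mrps27, Ptcd2 had a log2 difference of -0.92 (adjusted p = 0.0126). Beside Mrpl51 (-0.50, adjusted p = 0.0125), Ncapd2 had -2.37 (adjusted p = 7.97e-06), and beside Mrpl27 (-0.24, adjusted p = 0.101), Eme1 had -2.23 (adjusted p = 7.29e-06). Ndufb5, beside Mrpl47, had -1.31 (adjusted p = 0.00018), and Fau, beside Mrpl49, -0.48 (adjusted p = 0.0338).

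The 3 paralogs that descend from bacterial S18 differed in whether they passed. Mrps18a, as above, and Mrps18c (-0.51, adjusted p = 0.025, up to 0.237 over the alternatives) were lower in LPS, and Mrps18b had a log2 difference of -0.65 with an adjusted p of 0.0877. LPS replicate 2 held less Mrps18b (17.9 FPKM) than the other LPS libraries (37.8 and 35.1 FPKM), and with libraries 1 and 3 alone the difference was -0.24 (adjusted p = 0.143). In a model with replicate number as block Mrps18b passed (adjusted p = 0.045, the lowest of a range up to 0.211), as did Mrpl39 and Mrps31. Mrpl39 also passed with libraries 1 and 3 alone (-0.45, adjusted p = 0.0294). Mrps6, whose bacterial counterpart pairs with S18 in the platform, had 54.1, 44.2 and 83.8 FPKM in LPS+EVs, 70.5, 35.6 and 73.6 FPKM in LPS and 79.4, 53.2 and 84.0 FPKM in Control. Its replicate 2 was lowest in each group, and the groups overlapped (-0.31, adjusted p = 0.482, and -0.18, adjusted p = 0.499, with libraries 1 and 3 alone). Mrps36, the 2-oxoglutarate dehydrogenase subunit, also overlapped (-0.45, adjusted p = 0.135), and it passed as lower with libraries 1 and 3 alone (-0.74, adjusted p = 0.0216).

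The 22 members that did not pass included 4 with a positive difference between LPS and Control, all in the large subunit. Mrpl49 had 34.7, 23.4 and 33.1 FPKM in LPS+EVs, 39.4, 22.7 and 35.9 FPKM in LPS and 29.2, 26.4 and 28.2 FPKM in Control. Replicates 1 and 3 of LPS were above Control and replicate 2 below it (0.18, SE 0.22, adjusted p = 0.529). With libraries 1 and 3 alone Mrpl49 was higher in LPS than in Control (0.38, adjusted p = 0.0343, within 0.0224 to 0.923 over the alternatives). Mrpl43 had 48.0, 56.2 and 49.1 FPKM in LPS+EVs, 39.5, 50.3 and 30.6 FPKM in LPS and 37.3, 45.9 and 32.1 FPKM in Control. LPS and Control overlapped (0.05, adjusted p = 0.858, and 0.007, adjusted p = 0.972, with libraries 1 and 3 alone), while all LPS+EVs libraries lay above all Control libraries. Mrpl52, another abundant protein found in mitochondria alone, had a difference of 0.03 (adjusted p = 0.88), and 0.09 (adjusted p = 0.57) with libraries 1 and 3 alone. Mrpl49 carries the YY1 letters shown above, as Mrps7 does, and Mrpl52 the ETS letters, as Mrpl23 does. The counts by letters that follow are to be read beside 28.7% of all genes lower, at a median of -0.19. Members with the YY1 letters were lower in LPS in 10 of 15 cases (median -0.71), those without in 28 of 44 (median -0.52). With the ETS letters 14 of 20 were lower (median -0.66), without them 24 of 39 (median -0.52). With the NRF1 letters 7 of 12 were lower (median -0.51), without them 31 of 47 (median -0.63). With the E-box 4 of 6 were lower (median -0.67), without it 34 of 53 (median -0.54).

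**Figure D3:**
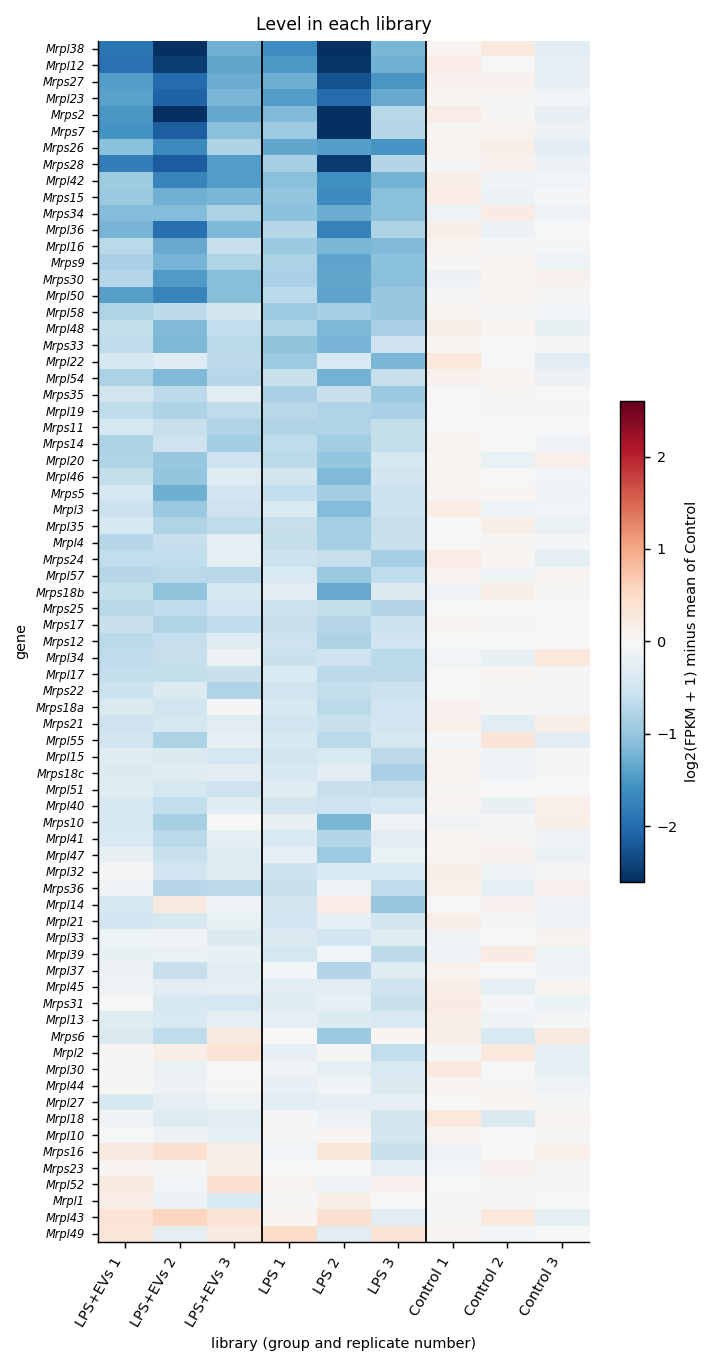
Log2(FPKM + 1) of 73 members in each of 9 libraries minus the mean of the Control libraries, with genes ordered by the difference between LPS and Control. Blue is lower and red is higher than Control; the rows at the top are darkest in LPS+EVs replicate 2 and LPS replicate 2.

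Libraries numbered 2 were often the lowest under LPS, for these genes and for all tested genes. Replicate 2 was the lowest library for 46 of 73 members in LPS+EVs (63.0%, against 50.8% of all tested genes) and for 44 in LPS (60.3%, against 54.2%). In Control it was lowest for 23 members (31.5%, against 41.4%). The median-of-ratios scaling factors were also lowest in LPS replicate 2 (0.836) and LPS+EVs replicate 2 (0.861). In both LPS+EVs and LPS replicate 2 was the lowest for 35 members and the highest for 5, and that share over all genes was not taken. Mrps2, named after its values were seen, showed this most: 4.1, 1.34 and 4.79 FPKM in LPS+EVs, 5.6, 1.03 and 7.87 FPKM in LPS and 15.6, 13.9 and 11.6 FPKM in Control. Its log2 difference between LPS and Control was -1.57 (SE 0.54, adjusted p = 0.0451), and -0.93 (adjusted p = 0.0758) without LPS replicate 2. With libraries 1 and 3 alone it was -0.92 (adjusted p = 0.013). Mrps16 ran the other way under LPS, with 39.1, 44.6 and 37.1 FPKM in LPS+EVs, 31.3, 41.5 and 21.9 FPKM in LPS and 30.0, 33.2 and 36.5 FPKM in Control. Between LPS and Control Mrps16 had a log2 difference of -0.11 (adjusted p = 0.695), and -0.325 (adjusted p = 0.202) with libraries 1 and 3 alone. The part of the marker levels given above in these values was not tested.

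The comparison of LPS+EVs with LPS asks what the vesicles added. Not a single member passed in limma's test (0 of 73, and 0 of 11141 genes, 0.0%), and limma-voom on recovered reads also gave 0 of 73, as did libraries 1 and 3 alone. At an unadjusted p under 0.05 there were 2 of 73 members and 295 of all genes. The members' median log2 difference was 0.06, beside -0.01 over all genes, with 50 values above 0 and 23 below. Over all genes 5391 values were above 0 and 5750 below. With 1 library left out the members' median ranged from 0.00721 to 0.164. Mrpl58 (0.29, unadjusted p = 0.0311, adjusted p = 0.999) and Mrpl2 (0.46, unadjusted p = 0.0459, adjusted p = 0.999) had the smallest p in limma's test. For Mrpl58 the LPS+EVs libraries (18.3, 19.8 and 22.9 FPKM) all lay above the LPS libraries (16.1, 17.3 and 15.7 FPKM), and the 95% interval of the difference ran from 0.04 to 0.55. Mrpl45 was the other member whose LPS+EVs libraries all exceeded LPS, 2 of 73 in all, against 3.14% of all genes. Mrpl2 had 26.4, 29.4 and 33.5 FPKM in LPS+EVs and 22.1, 26.5 and 16.2 FPKM in LPS, so that the groups overlapped by a single pair of libraries. Mrps35 (0.31), Mrpl43 (0.37), Mrps16 (0.38) and Mrpl50 (-0.39) came next by p. For 67 of 73 members the 95% interval lay within a log2 difference of 1 in either direction. The others were Mrpl12, Mrpl36, Mrpl38, Mrps2, Mrps7 and Mrps28, for which a difference of that size stays within the interval. These intervals come from the model without replicate number as a block, and intervals with that block are not given.

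**Figure D4:**
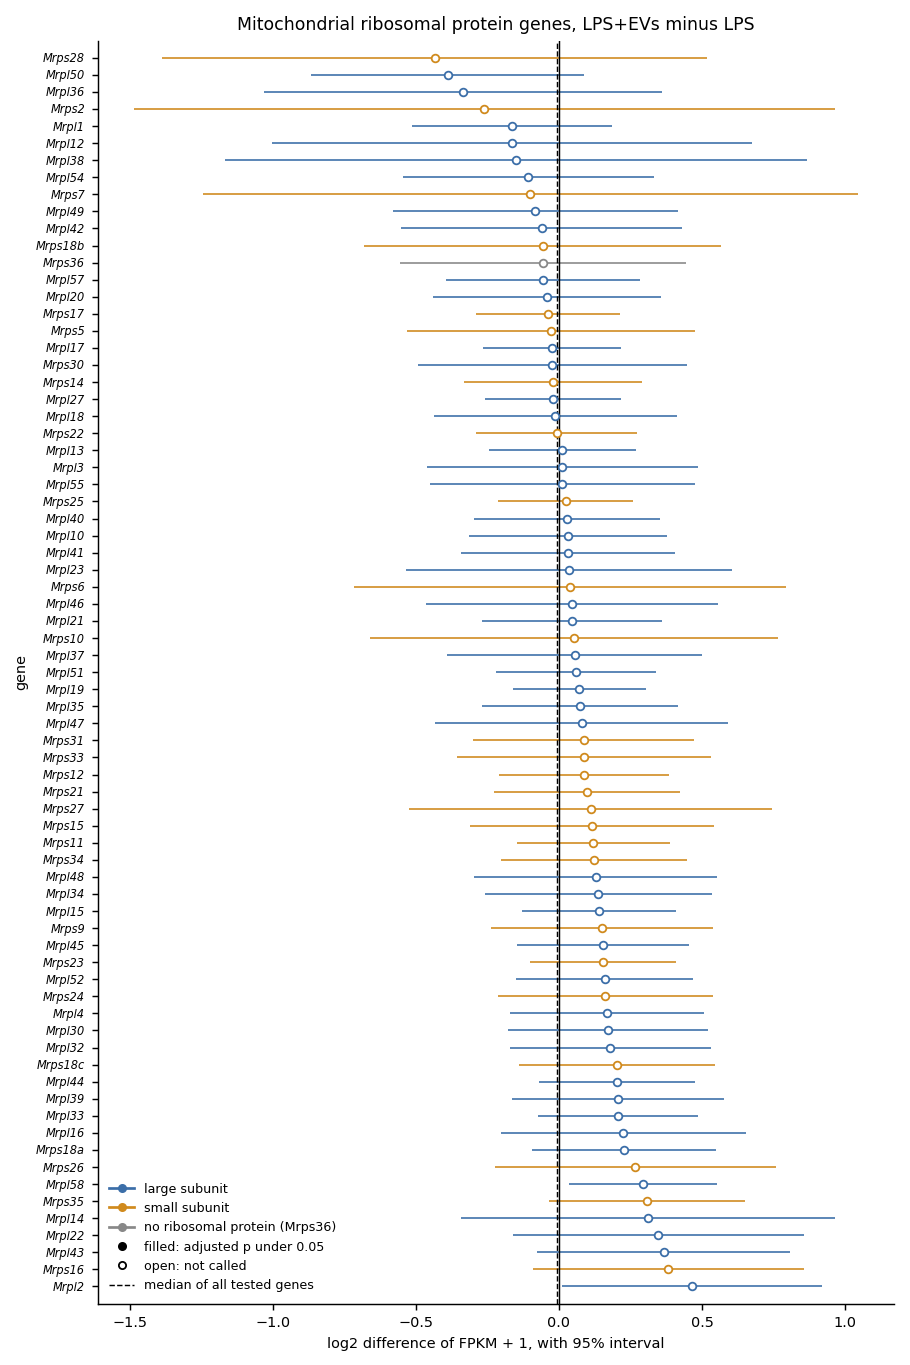
Log2 difference of FPKM + 1 between LPS+EVs and LPS for each of 73 members (points) with 95% intervals (lines), blue for the large and orange for the small subunit, grey for Mrps36. All points are open, since no adjusted p was under 0.05, and they spread from -0.43 (Mrps28) to 0.46 (Mrpl2).

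Set against Control, 42 members were lower in LPS+EVs (30.8% of all genes) and 0 were higher (13.5% of all genes), with a median log2 difference of -0.51 beside -0.19 over all genes. With libraries 1 and 3 alone 38 were lower (29.9% of all genes). With replicate number as a block 46 were lower (37.4% of all genes). The LPS+EVs libraries lay below all Control libraries in 52 members (40.6% of all genes) and above them in 2, Mrpl43 and Mrps16 (19.6% of all genes). This comparison shares its Control libraries with that of LPS, and the test of any difference between both treatments is the one above. Mrpl58 had a log2 difference of -0.64 from Control in LPS+EVs (adjusted p = 0.00273), Mrpl23 one of -1.56 (adjusted p = 0.00166), Mrps34 one of -1.02 (adjusted p = 0.000864) and Mrps28 one of -1.81 (adjusted p = 0.00874). Mrpl43 was 0.41 above Control (adjusted p = 0.114) and was higher in the model with that block (adjusted p = 0.0195, within 0.00398 to 0.32 over the alternatives). Besides Mrpl43, Mrpl22, Mrpl34, Mrpl41 and Mrps18b came to pass with the block, as lower in LPS+EVs.

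The rest of the mitochondrial translation apparatus was lower in LPS in part. Counts for the lists here and below are to be read beside 28.7% of all genes lower in LPS and 12.3% higher. Of 5 mitoribosomal proteins that bear other symbols, 3 were lower than Control in LPS and 0 higher (median log2 difference -0.42). Gadd45gip1, of the large subunit, had 15.2, 21.4 and 23.3 FPKM in LPS+EVs, 14.6, 20.7 and 14.8 FPKM in LPS and 37.7, 39.7 and 33.0 FPKM in Control. Both treated groups lay under Control (LPS difference -1.11, SE 0.19, adjusted p = 0.0023). Chchd1 (-0.40, adjusted p = 0.0118) and Aurkaip1 (-0.31, adjusted p = 0.0427) of the small subunit were lower by less, and neither passed with median-of-ratios scaling (up to 0.309 for Chchd1 and 0.665 for Aurkaip1 over the alternatives). Dap3, the GTP-binding protein of the small subunit, had a difference of -0.42 (adjusted p = 0.219) and passed with the replicate block (adjusted p = 0.0389, within 0.0389 to 0.559 over the alternatives). Ptcd3 had -0.59 (adjusted p = 0.25).

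Of 24 tested genes for ribosome assembly and rRNA modification 12 were lower in LPS and 0 higher (median -0.59). C1qbp, a matrix protein that binds mitochondrial RNA, had 37.0, 23.3 and 44.4 FPKM in LPS+EVs, 40.3, 24.5 and 42.9 FPKM in LPS and 156, 124 and 135 FPKM in Control. That was the largest fall of the list (-1.95, SE 0.27, adjusted p = 0.000797). The GTPase Gtpbp10 (-0.87, adjusted p = 0.00321) and the pseudouridine synthase Rpusd4 (-1.39, adjusted p = 0.00426) were lower too. Of 15 translation factors 9 were lower and 0 higher (median -0.50), among them the elongation factors Tufm (-0.79, adjusted p = 0.00205) and Gfm1 (-1.23, adjusted p = 0.00726) and the back-translocase Guf1 (-0.996, adjusted p = 0.00214).

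The 13 genes translated on these ribosomes differed among themselves. In LPS 5 were lower than Control (28.7% of all genes) and 0 higher (12.3% of all genes), with a median of -0.59. Among the lower ones were ND1 (-1.10, adjusted p = 0.00388), ND4 (-1.44, adjusted p = 0.0119) and ND6 (-1.89, adjusted p = 0.0048), all complex I subunits. COX1, the catalytic subunit of complex IV, had a difference of 0.32 (adjusted p = 0.287). Between LPS+EVs and LPS 0 of 13 passed in limma's test, with limma-voom also at 0, though 8 had an unadjusted p under 0.05, and the median was -0.60. Of 38 genes for nuclear complex I subunits, matched by symbol with Ndufa4 among them, 25 were lower in LPS and 0 higher (median -0.52). With median-of-ratios scaling 14 complex I genes were lower and 1 higher, and 3 of the 13 mitochondrial genes were lower, beside 20.8% of all genes lower. Of 76 cytosolic ribosomal protein genes 70 were lower and 0 higher (median -0.95). Their median between LPS+EVs and LPS was 0.26. There 20 of 76 had all LPS+EVs libraries above all LPS libraries (3.14% of all genes) and 0 passed.

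**Figure D5:**
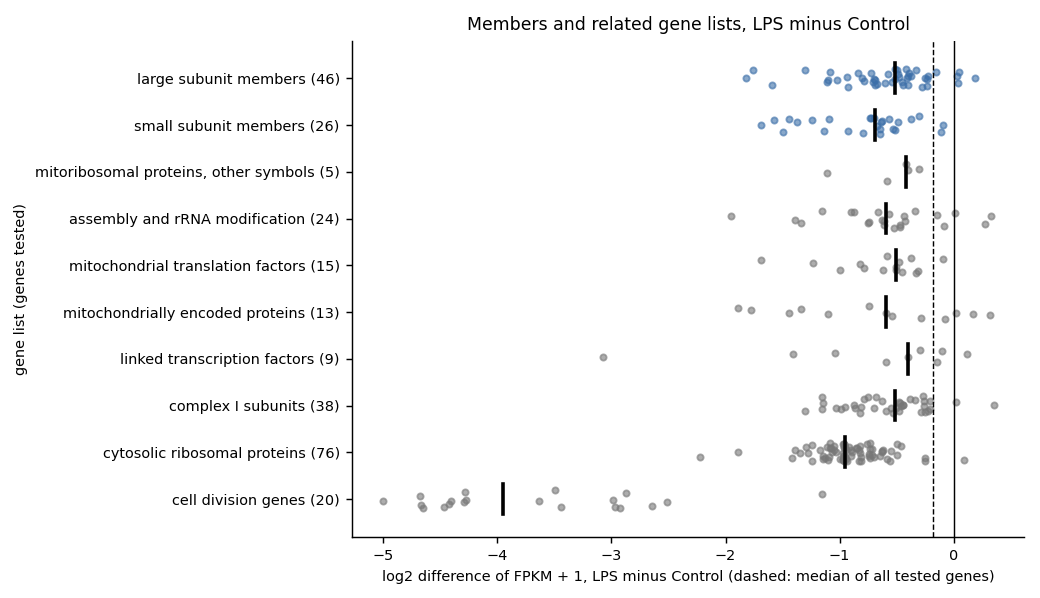
Log2 difference of FPKM + 1 between LPS and Control for each tested gene (points) of the large and small subunit members (blue) and of 8 related lists (grey), with the list's median as a black bar and the median of all tested genes dashed. The members' medians (-0.52 and -0.69) lie left of the dashed line and right of those of cytosolic ribosomal proteins (-0.95) and cell division genes (-3.95).

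Among 9 tested factors tied to transcription of nuclear genes for mitochondrial proteins, 3 were lower in LPS (28.7% of all genes) and 0 higher (12.3% of all genes). The count of lower factors was thus near the share over all genes. Myc had 5.97, 10.6 and 6.29 FPKM in LPS+EVs, 6.81, 7.07 and 5.05 FPKM in LPS and 63.0, 56.7 and 60.2 FPKM in Control (LPS difference -3.07, SE 0.21, adjusted p = 1.78e-05). Gabpa, the DNA-binding subunit of GABP, was lower by 0.59 on the log2 scale (adjusted p = 0.00666) and the coactivator Ppargc1b by 1.04 (adjusted p = 0.012). Nrf1 had -0.15 (adjusted p = 0.381) and Yy1 -0.30 (adjusted p = 0.115).

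Among lists for other cells and for growth, all 20 cell division genes were lower in LPS (median -3.95), with a summed level of 85.4 to 104 FPKM in LPS+EVs, 90.0 to 142 FPKM in LPS and 831 to 949 FPKM in Control. The 10 neutrophil and granulocyte precursor markers summed to 4.27 to 17.8 FPKM in LPS+EVs, 2.17 to 6.88 FPKM in LPS and 31.6 to 263 FPKM in Control, with 4 of 10 tested, 2 of them lower and 0 markers at 0 in every library. The 5 erythroid markers summed to 3.8 to 9.03 FPKM in LPS+EVs, 5.23 to 9.98 FPKM in LPS and 54.6 to 437 FPKM in Control, with 2 tested, 1 lower and 1 higher. Macrophage markers were lower in 8 of 12 cases and higher in 2, and of 12 stromal markers 0 were lower and 1 was higher, beside 28.7% of all genes lower and 12.3% higher. Stromal markers summed to 1040, 311 and 1500 FPKM in LPS+EVs, 1390, 237 and 879 FPKM in LPS and 1670, 700 and 1720 FPKM in Control. Replicate 2 thus held the least of them in each group. The part of these cells and of division in the members' difference was not tested.

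Across the 9 libraries the members' mean standardised level was lowest in LPS replicate 2 (-0.82) and highest in Control replicate 1 (1.12). The genes outside the set whose levels followed it most closely were Colgalt1 (Pearson correlation 0.998), Septin9 (0.996), Arap3 (0.993), Adam15 (0.992) and the complex I core subunit Ndufs1 (0.992), a description over 9 libraries that fall into treated and untreated ones. Of the members, Mrps9 followed the common level most closely (0.991) and Mrpl43 least (-0.35).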

How the data were processed

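RNA sequencing was done on 9 cultures, 3 per group, and groups and replicate numbers follow the sample labels. The deposited values are FPKM for 20442 genes. Per the submitters' processing notes fastp, HISAT2, HTSeq, R 3.2.0 and the build mRatBN7.2 were used, and settings and strand handling are not given in the sources used here. The members and all gene lists were chosen with earlier results of these data known.

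The tests covered the 11141 genes that reached 1 FPKM in 3 or more libraries. With 1 added before log2, limma 3.58.1 in R 4.3.3 (limma-trend, 1 mean per group, 9 libraries) gave two-sided p-values, adjusted by Benjamini-Hochberg over all genes, at a threshold of 0.05. Log2 differences on this scale understate those of low genes. The read recovery and the test were tried on simulated data. Replicates there were independent, without the pairing by number seen here, so that trial does not bear on the calls above. Whole reads were recovered from the FPKM steps, within 0.002 reads, for 100% of the 18833 genes seen in 2 or more libraries. They gave 32148519 to 39407116 reads per library, at which 3 reads in 1 kilobase make 0.0761 to 0.0933 FPKM (counting error only). On them limma-voom called 4511 genes between LPS and Control, against 4569 by limma-trend, and 45 members lower. Replicates differed by far more than sampling noise (chi-square per degree of freedom 45.4 or more).

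Libraries of the same number deviated together (9 correlations of 0.284 to 0.863, other pairs -0.745 to 0.426), so the numbers pair the cultures by the data, although the labels do not say how. The model without this block is the main one. Alternatives were median-of-ratios scaling, no filter, 0.1 added before log2, the 6 compared libraries alone, the replicate block with and without that scaling, limma-voom and each library left out. Libraries numbered 1 and 3 alone were chosen after seeing the data. Named members are the 10 with the smallest p and no overlap between LPS and Control, the 5 highest and 5 lowest by level, those with a positive difference, the 6 with the smallest p between LPS+EVs and LPS, and a panel by role. Mrpl38, Mrps2, Mrpl16, Mrpl46 and the promoter partners were named after their values were seen. Related lists are described by counts and medians. Mitochondrial nuclear-encoded lists were matched by symbol. Promoter windows are RefSeq's for GRCr8. Tables were made in Python 3.11.15 (numpy 2.4.6, pandas 2.3.3) and plots with matplotlib 3.10.9.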

Additional observations from a re-analysis of the deposited data

How the results depend on the processing

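Each named value was checked under each of 17 alternatives, so that 1 value counts once per alternative. The direction and side of the threshold held in 1897 of these checks. In 120 the value no longer passed, in 29 it came to pass and in 28 it changed sign, and the cause was not tested. Members lower in LPS than in Control numbered 31 to 48 with 1 library left out (31 without Control replicate 1). Their median was -0.419 with median-of-ratios scaling, with or without the block, as that scaling moves all genes, and -0.668 to -0.576 with 1 library left out. The count of higher members in LPS was 1 (Mrpl49) with the block and this scaling, and 1 (Mrpl49) with libraries 1 and 3 alone. The median between LPS+EVs and LPS was 0.00721 to 0.164 with 1 library left out (0.164 without LPS+EVs replicate 2). Between LPS+EVs and Control it was -0.293 with median-of-ratios scaling, with or without the block, and -0.616 to -0.46 with 1 library left out (-0.616 without LPS+EVs replicate 3). Higher members there numbered 1 with that scaling (Mrpl52), 1 with the replicate block (Mrpl43), 3 with both (Mrpl43, Mrpl49, Mrpl52) and 1 with libraries 1 and 3 alone (Mrpl43). The replicate block gave 54 lower members in LPS against Control (35.5% of all genes), 46 in LPS+EVs against Control (37.4% of all genes) and 0 called between LPS+EVs and LPS, and beyond those named in the report it changed no other member's call. Signs changed with median-of-ratios scaling, alike with and without the block, for Mrps16 (0.0983) and Mrpl10 (0.0482) in LPS against Control, and for Mrpl1 (0.0831), Mrpl10 (0.0897), Mrpl44 (0.178), Chchd1 (0.0193) and Aurkaip1 (0.102) in LPS+EVs against Control. With libraries 1 and 3 alone they changed for Mrpl1 in LPS (-0.00321) and Mrpl44 in LPS+EVs against Control (0.0405). With 1 library left out, LPS against Control ranged over -0.511 to 0.0241 for Mrps6, -0.0109 to 0.1 for Mrpl52, -0.125 to 0.225 for Mrpl43, -0.0218 to 0.0757 for Mrpl1, -0.326 to 0.119 for Mrps16 and -0.268 to 3.27e-05 for Mrpl10. LPS+EVs against Control ranged over -0.00222 to 0.272 for Mrpl49, -0.27 to 0.0123 for Mrpl1 and -0.0897 to 0.0255 for Mrpl44. With 3 cultures a group, small differences between LPS+EVs and LPS remain within the intervals given.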
